A study of Homo sapiens with 12 samples.

Results

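The respiratory chain of A549 cells is described here through the mRNAs of its subunits. The members are the 13 protein genes of mitochondrial DNA (MT-encoded) and 90 nuclear protein genes, 103 in all among the 57879 gene identifiers of each file. Nuclear members were taken by symbol, as every protein-coding gene beginning NDUFA, NDUFB, NDUFC, NDUFS, NDUFV, UQCR, COX4I, COX5, COX6, COX7, COX8 or ATP5, together with SDHA, SDHB, SDHC and SDHD, and with the NDUFAF assembly factors left out. Complex I has 38 nuclear and 7 MT-encoded members by this rule. Complex II has 4 nuclear ones, complex III 9 nuclear and 1 MT-encoded, complex IV 19 and 3, and complex V 20 and 2. NDUFA4 and NDUFA4L2 were counted with complex IV, where the NDUFA4 protein resides. The symbol rule also brought in NDUFAB1, the mitochondrial acyl carrier protein, ATP5IF1, an inhibitor of the ATP synthase, and the readthrough genes NDUFC2-KCTD14 and ATP5MF-PTCD1.

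A549 is an established human lung adenocarcinoma line, and all cells compared had been infected with a lentiviral construct and kept as stable lines. The groups were cells with an shRNA that lowers TAF15 (sh-TAF15, 2 libraries), cells with the empty shRNA construct (sh-NC, 1 library), cells overexpressing TIF1γ (2 libraries) and cells with the empty expression vector (vector, 3 libraries). Of 12 labelled samples, 3 biological replicates in each of 4 groups, the 8 with a file are described, and the other 4 are not analysed here. The labels do not say whether a line is 1 clone or a pool, nor whether replicates are separate cultures, so p-values measure the spread between these libraries.

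Complexes I, III and IV pass electrons to oxygen and pump protons across the inner mitochondrial membrane, complex II feeds in electrons from succinate without pumping, and complex V, the ATP synthase, uses the proton gradient to make ATP. Except for complex II, each is built from subunits of both genomes. MT-encoded mRNAs are cut from long transcripts of the mitochondrial DNA, whereas nuclear subunit genes have promoters of their own, in which sites for NRF1, for ETS factors such as GABPA and for YY1 are well known.

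The values were read as FPKM, a unit inferred from the values themselves. FPKM correct fragment numbers for transcript length and library size, so levels of different genes can be set side by side per length. For very short genes this is uncertain, as MT-ATP8 had 1.68 to 3.73 times the level of MT-ATP6, which lies on the same mRNA. The FPKM of a library summed to between 881293 (vector replicate 1) and 1356634 (TIF1γ replicate 2). TRIM33, the gene of TIF1γ, had 8.03 and 6.14 FPKM in TIF1γ libraries, against 2.23, 2.0985 and 1.27 FPKM in vector. TAF15 was not matched to an identifier through the annotation used here, so its knockdown was not checked. Sequencing depth, read from genes represented by 1 fragment, lay between 0.801 and 1.04 times that of vector replicate 1. Of 6 markers of alveolar type II cells and lung adenocarcinoma, the lung lineage factor NKX2-1 was at or below 0.206 FPKM in every library. The surfactant genes SFTPA1 and SFTPB were listed at 0 throughout and at most 0.0180 FPKM. ABCA3 had 2.70 to 8.21 FPKM, NAPSA 0.405 to 1.76 and SFTPC 0 to 1.42, and these passed the filter. KRT8 and KRT18, the keratins of simple epithelium, were listed at 0 in both TIF1γ libraries and lay between 1129 and 5747 FPKM in the other 6. Of the leukocyte markers CD3E, PTPRC and LYZ were at or near 0 in all 8 libraries, while CD14 had between 4.30 and 10.1 FPKM in the sh libraries, against 11.7 to 35.0 in the others, and was called lower in the sh lines. Of the fibroblast markers DCN was listed at 0 throughout, while COL1A1 had 2.43 to 3.64 FPKM in the sh libraries, against 0.260 to 1.11 in the others. COL1A2 had 1.04 to 1.85 FPKM in the sh libraries, against 0 to 0.0473 in the others. Both collagen genes passed the filter, at least 1 FPKM in at least 2 libraries, only through the sh libraries, so no call is read from them. The part of CD14 and the collagen genes in the results was not tested.

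The sequences shown here are promoter windows of 4 nuclear members, the 2 lower and the 2 higher ones with the largest differences between the lines with an shRNA construct (sh-TAF15 and sh-NC, the sh lines) and the other lines, as described further on. NDUFA3 and NDUFA7 were lower in the sh lines, and ATP5PB and SDHD were higher. Each window runs 5′ to 3′ on the strand of the gene, from 250 bases before to 50 bases after the annotated start, in the RefSeq table for GRCh38.p14. Capitals mark matches to 3 motifs searched on both strands: NRF1 as GCGCATGC or GCATGCGC, an ETS motif of the GABPA kind as CCGGAAGT or ACTTCCGG, and YY1 as AAGATGGC or GCCATCTT. The forms of the NRF1 motif can overlap each other.
NDUFA3 (chr19:54102605-54102904, plus strand): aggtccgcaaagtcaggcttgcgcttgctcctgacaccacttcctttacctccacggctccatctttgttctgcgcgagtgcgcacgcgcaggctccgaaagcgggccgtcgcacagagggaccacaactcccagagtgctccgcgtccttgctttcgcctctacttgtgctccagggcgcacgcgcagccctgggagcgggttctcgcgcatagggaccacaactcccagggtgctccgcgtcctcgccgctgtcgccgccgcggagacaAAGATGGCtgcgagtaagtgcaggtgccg
NDUFA7 (chr19:8321326-8321625, minus strand): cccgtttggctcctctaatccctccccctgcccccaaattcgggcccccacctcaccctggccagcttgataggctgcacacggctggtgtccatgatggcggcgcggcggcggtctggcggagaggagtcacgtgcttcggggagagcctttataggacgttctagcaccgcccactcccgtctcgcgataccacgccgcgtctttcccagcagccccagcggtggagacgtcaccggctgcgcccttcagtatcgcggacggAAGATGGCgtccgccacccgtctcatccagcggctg
ATP5PB (chr1:111449214-111449513, plus strand): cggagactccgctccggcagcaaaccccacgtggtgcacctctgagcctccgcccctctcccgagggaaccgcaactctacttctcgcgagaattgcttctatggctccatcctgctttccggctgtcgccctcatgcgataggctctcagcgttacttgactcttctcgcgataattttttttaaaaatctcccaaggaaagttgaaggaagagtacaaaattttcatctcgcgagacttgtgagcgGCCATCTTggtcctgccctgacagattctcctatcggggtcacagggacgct
SDHD (chr11:112086623-112086922, plus strand): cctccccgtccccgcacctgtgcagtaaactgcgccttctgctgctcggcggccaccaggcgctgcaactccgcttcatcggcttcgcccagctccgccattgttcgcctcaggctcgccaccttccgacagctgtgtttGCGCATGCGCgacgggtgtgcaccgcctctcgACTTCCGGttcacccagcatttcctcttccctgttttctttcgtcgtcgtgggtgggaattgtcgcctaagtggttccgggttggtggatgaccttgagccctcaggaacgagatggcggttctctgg

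NDUFA3 and NDUFA7 each hold the YY1 letters on the gene strand, beginning 21 and 14 bases after the start. ATP5PB holds them on the opposite strand, across the start. SDHD holds both NRF1 forms, overlapping, and the ETS letters on the opposite strand. The windows of NDUFB7, lower in the sh lines, and NDUFB3, higher in them, hold none of the 3 motifs. Promoter entries were matched for 71 of the 90 nuclear members and for 0 of the 13 MT-encoded ones. The NRF1 letters are in 13 of the 71 windows (18.3%) and in 3.05% of all 35116 promoter windows of this length. The ETS letters are in 10 (14.1%, against 4.14% of all), and the YY1 letters in 11 (15.5%, against 2.89% of all). Among the members with an entry, the NRF1 letters are in 4 of 18 called lower in the sh lines, in 1 of 3 called higher and in 8 of 45 tested and not called. A letter match describes a window and says nothing of binding.

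Per kilobase, the MT-encoded mRNAs were far more abundant than the nuclear ones, and their share moved more from library to library. The 13 MT-encoded members took 12.1% and 7.70% of the summed FPKM in sh-TAF15 libraries and 11.2% in sh-NC, against 8.98% and 8.61% in TIF1γ libraries and 7.72%, 6.86% and 10.6% in vector. The 90 nuclear members took 2.61% and 3.07% in sh-TAF15 libraries and 2.50% in sh-NC, against 3.19% and 3.01% in TIF1γ libraries and 2.99%, 3.24% and 2.84% in vector. The 3 libraries with the highest MT-encoded shares, sh-TAF15 replicate 2, sh-NC and vector replicate 3, had the 3 lowest nuclear shares. Vector and sh-TAF15 each had libraries on both sides, so the groups overlapped.

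The MT-encoded sum was 4.63 and 2.51 times the nuclear sum in sh-TAF15 libraries and 4.49 times in sh-NC, against 2.82 and 2.86 times in TIF1γ libraries and 2.58, 2.12 and 3.75 times in vector. On the log2 scale, with 1 added to the scaled FPKM, the mean of the 13 MT-encoded members exceeded the mean of the 82 nuclear members that passed the filter by 4.72 ± 0.71 (SD, n = 2) in sh-TAF15, 5.09 in the single sh-NC library, 4.61 ± 0.11 (SD, n = 2) in TIF1γ and 4.46 ± 0.50 (SD, n = 3) in vector. The filter required at least 1 FPKM in at least 2 libraries. The difference between the group means of TIF1γ and vector is smaller than the spread within vector, where the 3 libraries covered 0.99 log2 units, and the 2 sh-TAF15 libraries were 1.01 log2 units apart. With each library's trend against transcript GC and length removed, the values were 5.10 and 4.03 in sh-TAF15, 4.91 in sh-NC, 4.94 and 4.67 in TIF1γ, and 4.39, 3.94 and 5.15 in vector.

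**Figure D1:**
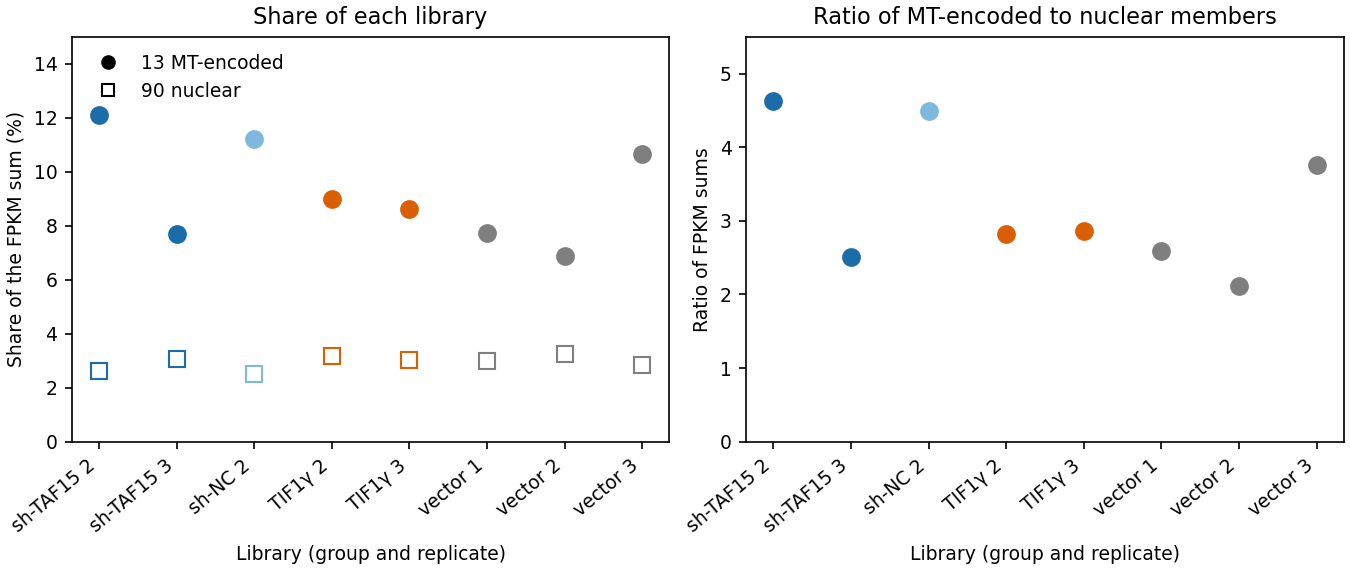
Left, share of the summed FPKM (percent) taken by the 13 MT-encoded members (filled circles) and the 90 nuclear members (open squares) in each of the 8 libraries; right, the ratio of the 2 sums. Each point is 1 library, coloured by group, and the ratio runs from 2.12 in vector replicate 2 to 4.63 in sh-TAF15 replicate 2, with wide gaps inside the sh-TAF15 and vector groups.

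In some pairs of replicates the MT-encoded and nuclear members differed in opposite directions. All 13 MT-encoded members were higher in vector replicate 3 than in vector replicate 2, by a median of 0.50 log2 units, whereas 6 of the 82 nuclear members were, with a median of -0.31. All 13 were likewise higher in sh-TAF15 replicate 2 than in sh-TAF15 replicate 3, by a median of 0.54, against 5 of 82 nuclear members and a median of -0.48. In TIF1γ the 2 sets went the same way, with 12 of 13 MT-encoded and 65 of 82 nuclear members higher in replicate 2 than in replicate 3. Vector replicate 3 exceeded vector replicate 1 in 13 of 13 MT-encoded and 39 of 82 nuclear members, and vector replicate 2 exceeded vector replicate 1 in 6 of 13 and 77 of 82. Of 11720 protein-coding genes tested, 6186 were higher in vector replicate 3 than 2, and 6094 in sh-TAF15 replicate 2 than 3. There were 5080 higher in TIF1γ replicate 2 than 3, 6083 in vector replicate 3 than 1, and 5262 in vector replicate 2 than 1. The labels name poly(A) selection or ribosomal RNA removal without saying which library had which, and total RNA with a RIN above 6.5 was accepted. The mitochondrial ribosomal RNAs MT-RNR1 and MT-RNR2 together took 1.39% and 1.05% of the FPKM sum in sh-TAF15, 1.31% in sh-NC, 0.865% and 0.948% in TIF1γ and 1.68%, 1.62% and 1.35% in vector, and their part in the MT-encoded levels was not tested.

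Among the MT-encoded members, those of the complex IV core and MT-ATP8 had the highest FPKM and MT-ND5 the lowest. The place of MT-ATP8 rests on the length correction of a stretch of 207 bases. MT-CO1, MT-CO2 and MT-CO3 encode the catalytic core of cytochrome c oxidase, which reduces oxygen. MT-CO3 had 17152 and 15559.9 FPKM in sh-TAF15 libraries and 16376 in sh-NC, against 19194 and 13549 in TIF1γ libraries and 10782, 12504 and 13221 in vector. MT-CO2 had 13661 and 12729 FPKM in sh-TAF15 libraries and 12130.4 in sh-NC, against 19718 and 13572 in TIF1γ libraries and 11760.4, 12894 and 13749 in vector. MT-CO1 had 12638 and 10550.2 FPKM in sh-TAF15 libraries and 11108 in sh-NC, against 15195 and 13839 in TIF1γ libraries and 9827, 9024 and 14878 in vector. In unscaled FPKM TIF1γ replicate 2 was the highest of the 8 libraries for all 3 mRNAs. For MT-CO3 the 3 sh libraries and both TIF1γ libraries exceeded all vector libraries on that scale. For MT-CO1 the sh libraries lay below both TIF1γ libraries, and for MT-CO1 and MT-CO2 they lay within the unscaled vector range. The fit divides FPKM by 0.899 in vector replicate 3 and by 1.12 in sh-TAF15 replicate 3. Scaled in this way, vector replicate 3 was the highest for MT-CO1 and above sh-TAF15 replicate 3 for MT-CO3. For MT-CO2 sh-TAF15 replicate 3 then fell below the vector range.

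The 7 MT-encoded mRNAs of complex I, whose products form the proton-pumping arm in the membrane, differed widely in level. MT-ND3 was the highest, with 8419 and 8079 FPKM in sh-TAF15 libraries and 7159 in sh-NC, against 16878 and 11129 in TIF1γ libraries and 7127, 10173 and 10062 in vector. MT-ND5 was the lowest, with 1487 and 848 FPKM in sh-TAF15 libraries and 1224 in sh-NC, against 984 and 685 in TIF1γ libraries and 606, 410.4 and 1256 in vector. MT-ND5 varied 3.06-fold between vector replicates 3 and 2. MT-ND4L varied still more, with 5373 and 1846 FPKM in sh-TAF15 libraries and 4816 in sh-NC, against 4698 and 3322 in TIF1γ libraries and 3562, 1582 and 8054 in vector, a 5.09-fold gap between vector replicates 3 and 2. For MT-ND4L and MT-ND5 the ranges of sh-TAF15, TIF1γ and vector overlapped. Between the same pair of libraries MT-CO2 moved by 1.07-fold and MT-ND3 had a ratio of 0.989.

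MT-ND1, MT-ND2, MT-ND4 and MT-ND6 lay between these extremes. MT-ND6, the only mRNA of the opposite strand of mitochondrial DNA, had 3652 and 2417 FPKM in sh-TAF15 libraries and 3153 in sh-NC, against 3742 and 2569 in TIF1γ libraries and 1985, 2271 and 2533 in vector. MT-ND1 ranged from 4111 to 8091 FPKM, MT-ND2 from 2477 to 4172 and MT-ND4 from 2143 to 5137 over the 8 libraries. MT-CYB, the cytochrome b of complex III, had 3749.9 and 2416 FPKM in sh-TAF15 libraries and 3398 in sh-NC, against 2718 and 1586 in TIF1γ libraries and 1479, 1315 and 2006 in vector. In unscaled FPKM all 3 sh libraries were above all 3 vector libraries for MT-CYB, and TIF1γ replicate 2 lay among the sh libraries. Divided by the scale factors of the fit, 1.12 and 0.899, sh-TAF15 replicate 3 lay below vector replicate 3.

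**Figure D2:**
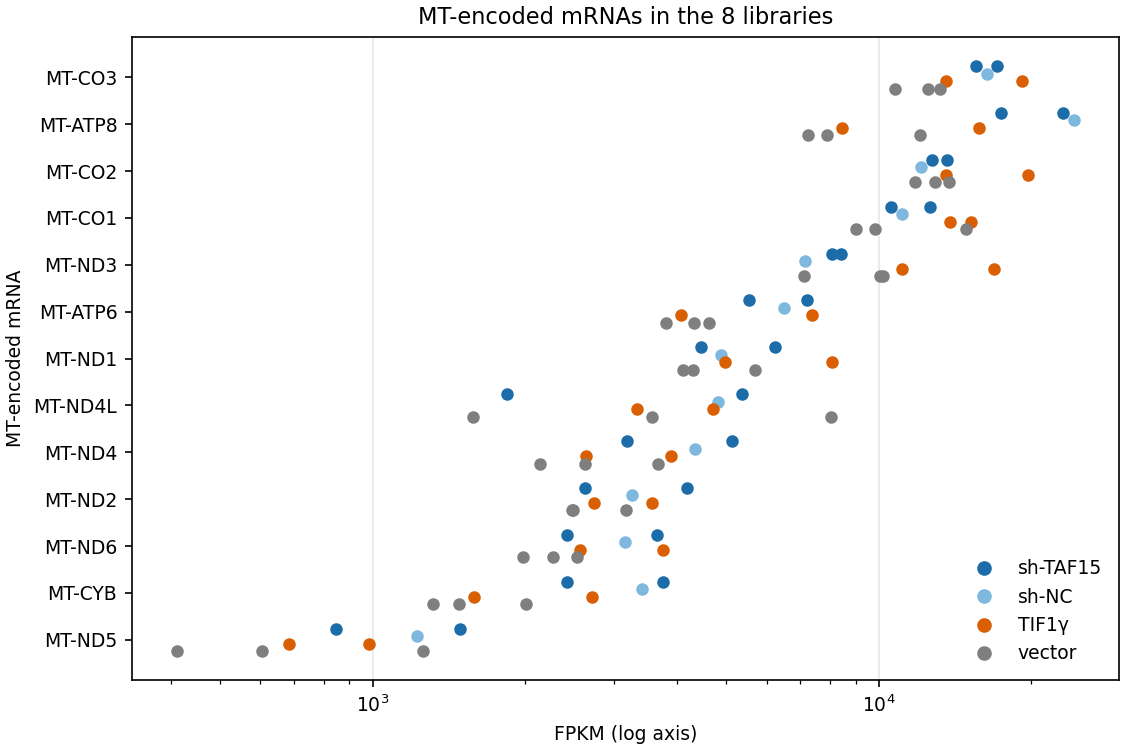
FPKM (log axis) of the 13 MT-encoded mRNAs, ordered by mean level, with 1 point for each of the 8 libraries coloured by group. MT-ND5 and MT-ND4L spread most within groups, and MT-ATP8 has its 3 sh libraries to the right of the other 5.

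In TIF1γ-overexpressing cells 0 of the 95 members tested were called against vector by limma at an adjusted p under 0.05, where 0.0216% of all genes were called, and 0 were called by limma without its trend and robust settings. At an unadjusted p under 0.05 there were 6 members, 4 higher and 2 lower, while 19.9% of all 13907 genes tested were below that value, 8.53% higher and 11.4% lower. All 13 MT-encoded members had a log2 fold change above 0, with a median of 0.30 and adjusted p from 0.275 to 0.975. The nuclear members had a median of 0.17, with 54 of 82 above 0, beside 0.02 over all genes, of which 51.3% were above 0. The nuclear median was -0.07 when libraries were scaled to their totals without MT genes, a scaling that moved the median of all genes to -0.15, and it was -0.04 without TIF1γ replicate 2. The MT-encoded median was 0.065 under that scaling and 0.041 without TIF1γ replicate 2. In the fitted model the largest MT-encoded difference was that of MT-ND3, with 0.52 (SE 0.26).

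The nuclear members with the largest differences under TIF1γ were subunits of complex I and complex V. NDUFS1, the largest iron-sulfur subunit of the electron-entry arm of complex I, had 14.2 and 20.0 FPKM in TIF1γ libraries, against 32.8, 24.02 and 25.7 in vector (log2 fold change -0.74, SE 0.26, limma adjusted p = 0.206). NDUFA5, an accessory subunit of the same arm, had 11.1 and 14.3 FPKM in TIF1γ libraries, against 21.7, 25.2 and 14.2 in vector (-0.70, SE 0.27, limma adjusted p = 0.214). For NDUFS1 both TIF1γ libraries were below all 3 vector libraries, and for NDUFA5 TIF1γ replicate 3 was just above vector replicate 3. ATP5F1D, the delta subunit of the ATP synthase rotor stalk, had 519 and 360.3 FPKM in TIF1γ libraries, against 204, 284 and 226 in vector (0.79, SE 0.29, limma adjusted p = 0.208). Both TIF1γ libraries were above all 3 vector libraries. The readthrough gene ATP5MF-PTCD1, whose reads cannot be separated from those of ATP5MF, had 8.47 and 5.51 FPKM in TIF1γ libraries, against 4.12, 0.583 and 5.20 in vector (1.03, SE 0.57, limma adjusted p = 0.325).

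The GC content of the transcripts ran alongside the nuclear values under TIF1γ. Across the 82 genes Spearman's rho between log2 fold change and GC of the longest transcript was 0.71, and across 11720 protein-coding genes it was 0.78, all from the same 5 libraries. The 19 members over 55% GC had a median of 0.53, with 18 above 0, and the 29 members under 45% GC had a median of -0.09, with 12 above 0. With the GC and length trend removed the nuclear median was 0.13 and the MT-encoded median 0.36.

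The sh-TAF15 libraries were set against a single sh-NC library, whose spread was taken from the other groups. Here 0 of 95 members were called by limma, with 0.0575% of all genes called, and 0 by limma without trend and robust settings. At an unadjusted p under 0.05 there was 1 member, UQCRC2, while 5.62% of all genes were below that value. UQCRC2, a core subunit of complex III, had 67.8 and 44.9 FPKM in sh-TAF15 libraries, against 101 in sh-NC (log2 fold change -0.92, SE 0.37, limma adjusted p = 0.78). Both sh-TAF15 libraries were lower.

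The nuclear median in sh-TAF15 minus sh-NC was 0.28, with 72 of 82 members above 0, and the MT-encoded median was -0.11, with 3 of 13 above 0, beside -0.00 over all genes, of which 49.1% were above 0. Both medians rest on which sh-TAF15 library is used. Without sh-TAF15 replicate 3 the nuclear median was 0.04 and the MT-encoded one 0.15, and without sh-TAF15 replicate 2 they were 0.48 and -0.40. NDUFA13 of complex I, which had 249.9 and 464 FPKM in sh-TAF15 libraries and 202 in sh-NC, had the largest positive nuclear value (0.68, SE 0.41, limma adjusted p = 0.933), followed by NDUFB9 with 276 and 431 against 212 FPKM (0.63, SE 0.37, limma adjusted p = 0.923). For both genes each sh-TAF15 library was above the sh-NC library, replicate 3 by more. SDHD had the second most negative value, -0.24 (SE 0.35, limma adjusted p = 0.962).

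Whether the effect of TIF1γ differed from that of sh-TAF15 was fitted as the difference between both contrasts. Of 95 members 0 were called by limma and 0 had an unadjusted p under 0.05, beside 0.0431% and 3.6% of all genes. The median difference was 0.38 for MT-encoded members, with 13 of 13 above 0, and -0.14 for nuclear members, with 27 of 82 above 0, where 49.6% of all genes were. Without sh-TAF15 replicate 2 the nuclear value was -0.38, and without sh-TAF15 replicate 3 it was 0.09. The MT-encoded value was 0.61 without sh-TAF15 replicate 2, 0.17 without sh-TAF15 replicate 3 and 0.19 without TIF1γ replicate 2. The largest single values, 1.17 (SE 0.95) for ATP5MF-PTCD1 and 0.67 (SE 0.54) for NDUFA4L2 on the positive side and -0.78 (SE 0.44) for NDUFS1 and -0.64 (SE 0.44) for NDUFB5 on the negative side, all had a limma adjusted p of 1.

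The control lines were also set against each other, with 1 library on the sh-NC side. In sh-NC minus vector 2 of 95 members were called, both lower, where 11% of all genes were called, 3.78% higher and 7.21% lower. They were the complex I accessory subunits NDUFA3 (log2 fold change -1.52, SE 0.37, limma adjusted p = 0.0182) and NDUFA7 (-1.23, SE 0.33, limma adjusted p = 0.0275). The sh-NC library lay below all 3 vector libraries for both, with 95.9 FPKM against 211, 296 and 234 for NDUFA3, and 66.0 FPKM against 119, 164 and 137 for NDUFA7. Neither gene was called without vector replicate 3, where the limma adjusted p was 0.0523 for NDUFA3 and 0.0598 for NDUFA7, nor on FPKM without further scaling (0.057 and 0.0819). On the positive side SDHD had 0.65 (SE 0.33, limma adjusted p = 0.214) and UQCRC2 0.54 (SE 0.35, limma adjusted p = 0.332). The nuclear median was -0.37, with 20 of 82 above 0, and the MT-encoded median 0.26, with 9 of 13 above 0, beside 0.01 over all genes, of which 50.8% were above 0. At an unadjusted p under 0.05 there were 21 members, beside 27.9% of all genes. In that contrast MT-ATP8 had 1.28 (SE 0.40, limma adjusted p = 0.054). The comparisons of TIF1γ with vector, sh-TAF15 with sh-NC and sh-NC with vector share control libraries, so their values are given side by side and not related to each other.

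**Figure D3:**
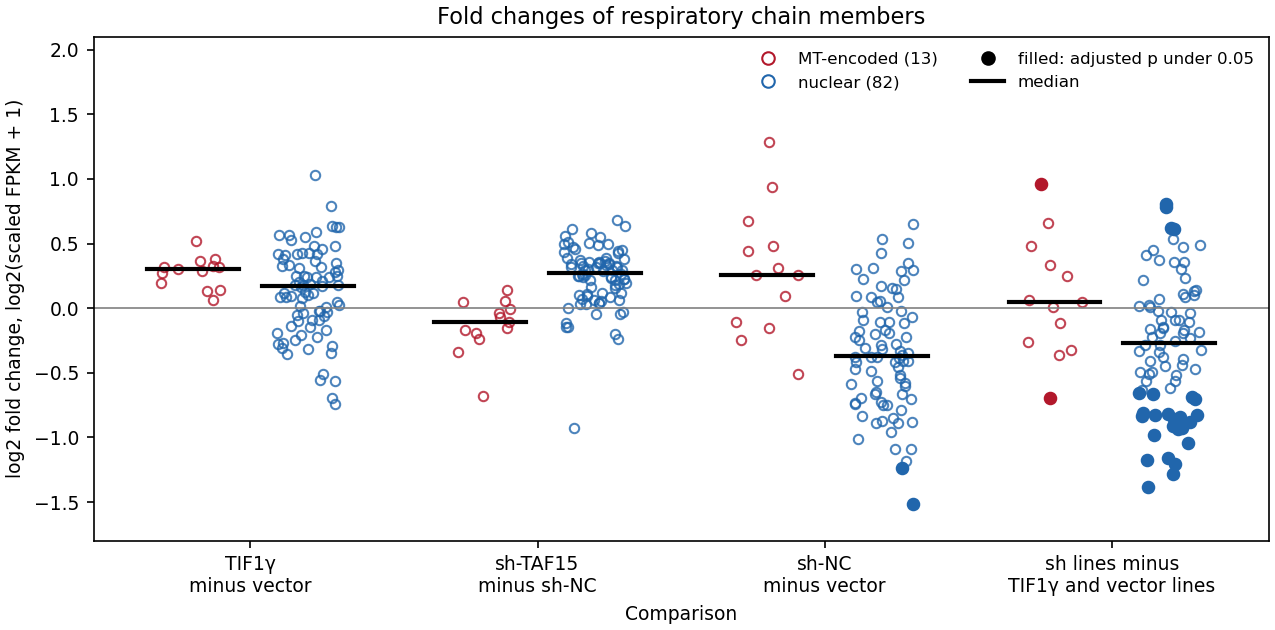
Log2 fold changes of the 13 MT-encoded (red) and 82 nuclear (blue) members in 4 comparisons, with filled points for an adjusted p under 0.05 and a black bar at each median. The MT-encoded median is above the nuclear one in TIF1γ minus vector (0.30 and 0.17) and in sh-NC minus vector (0.26 and -0.37), and below it in sh-TAF15 minus sh-NC (-0.11 and 0.28).

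The clearest differences among members were between the 3 sh libraries and the 5 libraries of the TIF1γ and vector lines, fitted as the mean of sh-TAF15 and sh-NC minus the mean of TIF1γ and vector. The labels do not say whether the lines with the shRNA construct and those with the expression construct were made or sequenced together, so construct type cannot be told apart from line or batch. Of 95 members 28 were called (29.5%), 5 higher and 23 lower, where 41.6% of all genes were called, 20.4% higher and 21.1% lower. The lower calls include NDUFA4L2, which passed the filter only through the TIF1γ and vector libraries and is not read as a result. Whether the members' share differs from that of all genes was not tested. Scaled to totals without MT genes, 40 were called, 22 higher and 18 lower. With unscaled FPKM 22 were called, 9 higher, and with upper-quartile scaling 33, 10 higher.

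The nuclear median in the sh lines was -0.27, with 24 of 82 above 0, where 50.7% of all genes were, and it turned to 0.05 under scaling to totals without MT genes, which put the median of all genes at 0.28 in place of 0.02. Measured from the median of all genes, the nuclear median was -0.28 as fitted and -0.22 under that scaling. The MT-encoded median was 0.05, with 8 of 13 above 0, and -0.11 with the GC and length trend removed. It was 0.37 under scaling to totals without MT genes, 0.21 without sh-TAF15 replicate 3 and -0.11 without sh-TAF15 replicate 2. The 5 epithelial markers summed to between 2528 and 4402 FPKM in the sh libraries, against 9922 to 11507 in vector. In TIF1γ libraries, where KRT8 and KRT18 were listed at 0, the sums were 72.5 and 73.9. KRT8 and KRT18 made up most of the other sums and were set aside from the fit. KRT19 had 0.243 to 0.775 FPKM in the sh libraries, against 61.5 and 61.7 in TIF1γ and 26.9 to 41.6 in vector. CDH1 had 0.857 to 6.96 FPKM in the sh libraries, against 8.29 and 10.9 in TIF1γ and 4.27 to 10.4 in vector. EPCAM had 0.436 to 1.87 FPKM in the sh libraries, against 2.72 and 1.25 in TIF1γ and 1.80 to 3.75 in vector. The 5 fibroblast markers summed to between 4.09 and 5.95 FPKM in the sh libraries, against 0.378 to 1.25 in the others, with DCN at 0 in all. The part of these markers in the results was not tested, and in bulk RNA fewer cells of a type and less RNA per cell cannot be told apart.

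Complex I had 11 lower calls and 1 higher call among its 37 tested nuclear members (32.4%, beside 41.6% of all genes). NDUFA3, an accessory subunit of the membrane arm, had 112 and 182 FPKM in sh-TAF15 libraries and 95.9 in sh-NC, against 424 and 222 in TIF1γ libraries and 211, 296 and 234 in vector. NDUFA7, an accessory subunit of the electron-entry arm, had 76.5 and 98.7 FPKM in sh-TAF15 libraries and 66.0 in sh-NC, against 256 and 152 in TIF1γ libraries and 119, 164 and 137 in vector. For both genes all 3 sh libraries were below all 5 others. NDUFA3 fell by 1.39 on the log2 scale (SE 0.24, limma adjusted p = 8.36e-04) and NDUFA7 fell by 1.28 (SE 0.22, limma adjusted p = 6.05e-04). Each stayed called under every alternative run for this comparison, none of which left out sh-NC. NDUFA3 overlaps TFPT on the opposite strand, and NDUFA7 overlaps RPS28 on the opposite strand and a longer same-strand gene, and whether counting used strand is not given in the sources used here.

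NDUFB7, an accessory subunit with a role at the intermembrane side of complex I, had 295 and 516 FPKM in sh-TAF15 libraries and 249 in sh-NC, against 1075 and 577 in TIF1γ libraries and 433, 619.7 and 472 in vector. It fell by 1.18 (SE 0.25, limma adjusted p = 0.00286), though sh-TAF15 replicate 3 lay above vector replicates 1 and 3 in unscaled FPKM. NDUFS7 and NDUFS8, which carry iron-sulfur clusters near the quinone site, fell by 1.16 (SE 0.24, limma adjusted p = 0.00225) and by 0.98 (SE 0.25, limma adjusted p = 0.00728). NDUFB9 fell by 0.93 (SE 0.23, limma adjusted p = 0.00666). Further lower calls of complex I included NDUFV1, NDUFA11, NDUFB2 and NDUFA2, with log2 fold changes from -0.83 to -0.66. NDUFB2 and NDUFA2 were not called without TIF1γ replicate 2 (limma adjusted p = 0.0697 and 0.0762) or without sh-TAF15 replicate 2 (0.0896 and 0.111), and NDUFA2 also not without vector replicate 2 (0.0511).

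NDUFB3 was the single higher call in complex I, an accessory subunit of the distal membrane arm. It had 142 and 208 FPKM in sh-TAF15 libraries and 132 in sh-NC, against 90.3 and 72.0 in TIF1γ libraries and 92.6, 107 and 85.1 in vector. The sh libraries were above all 5 others, and NDUFB3 rose by 0.61 (SE 0.20, limma adjusted p = 0.0262). Without vector replicate 1 the limma adjusted p was 0.064, and without sh-TAF15 replicate 3 it was 0.0974.

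Complex II has no MT-encoded subunit. SDHD, which anchors the enzyme in the membrane, had 57.9 and 69.8 FPKM in sh-TAF15 libraries and 72.1 in sh-NC, against 24.1 and 36.5 in TIF1γ libraries and 40.3, 47.4 and 34.3 in vector. All 3 sh libraries were above all 5 others, and SDHD rose by 0.78 (SE 0.22, limma adjusted p = 0.0116). The flavoprotein SDHA, the iron-sulfur protein SDHB and the anchor SDHC were not called, with log2 fold changes of -0.16, -0.18 and -0.28. SDHA lay between 75.4 and 117 FPKM over all 8 libraries, SDHB between 97.0 and 179.6 and SDHC between 144 and 209. SDHD shares an annotated stretch with a same-strand readthrough gene and its end with TIMM8B on the opposite strand.

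In complex III 2 of 9 tested nuclear members were called (22.2%, beside 41.6% of all genes). UQCRC1, a core subunit facing the matrix, had 236 and 346 FPKM in sh-TAF15 libraries and 214 in sh-NC, against 713 and 364 in TIF1γ libraries and 379.9, 415 and 271 in vector. It fell by 0.93 (SE 0.25, limma adjusted p = 0.0088), with sh-TAF15 replicate 3 above vector replicate 3, and was at -0.33 with the GC and length trend removed (limma adjusted p = 0.229). UQCRHL, an intronless copy of the hinge subunit gene UQCRH, had 7.82 and 11.5 FPKM in sh-TAF15 libraries and 8.77 in sh-NC, against 4.5002 and 4.33 in TIF1γ libraries and 5.38, 4.93 and 6.39 in vector. Every sh library was above the other 5, and UQCRHL rose by 0.62 (SE 0.22, limma adjusted p = 0.0399), a call that leaving out any of 5 single libraries removed (TIF1γ replicate 2, vector replicates 1 and 2, and sh-TAF15 replicates 2 and 3, with limma adjusted p from 0.0509 to 0.14). UQCRHL reached 0.0166, 0.0181 and 0.0182 of the UQCRH level in the sh libraries, against 0.00781 to 0.014 in the others, and reads of these near-identical genes may not be separable.

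Complex IV had 7 lower and 0 higher calls among 13 tested nuclear members (53.8%, beside 41.6% of all genes), with a nuclear median of -0.69. With the GC and length trend removed the median was -0.39, and 4 of the 7 were still called. The 7 include NDUFA4L2, which passed the filter only through the TIF1γ and vector libraries, so its call is not read as a result. COX8A, a small transmembrane subunit and the most abundant nuclear member on average, had 1247 and 1737 FPKM in sh-TAF15 libraries and 1154 in sh-NC, against 3244 and 1978 in TIF1γ libraries and 1581, 1964 and 1632 in vector. It fell by 0.84 (SE 0.22, limma adjusted p = 0.0082), with sh-TAF15 replicate 3 inside the vector range, and was not called on FPKM without further scaling (0.0515). COX6A1 had 899.9 and 1394 FPKM in sh-TAF15 libraries and 841 in sh-NC, against 1988 and 1676 in TIF1γ libraries and 1374, 1640.0 and 1348 in vector, and fell by 0.91 (SE 0.21, limma adjusted p = 0.00446), with sh-TAF15 replicate 3 just above vector replicates 1 and 3. COX4I1 and COX6B1, subunits with a part in regulation and in dimer contacts, fell by 0.83 (SE 0.22, limma adjusted p = 0.00922) and by 0.82 (SE 0.24, limma adjusted p = 0.0156). COX7A2 and COX5B were called at -0.81 and -0.69. COX6B1 was not called without TIF1γ replicate 2 (limma adjusted p = 0.0625) or without sh-TAF15 replicate 2 (0.0574), and COX5B likewise (0.0789 and 0.102).

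The other member of each pair of complex IV paralogs, known mainly from muscle, lung or testis, was nearly silent. COX4I2, COX6A2, COX7B2 and COX8C were listed at 0 in all 8 libraries. COX7A1 reached at most 1.08 FPKM and COX6B2 at most 0.498, and neither passed the filter. NDUFA4L2, a hypoxia-induced paralog of NDUFA4 and the lowest nuclear member that passed the filter, had 0.339 and 0.473 FPKM in sh-TAF15 libraries and 0.540 in sh-NC, against 1.52 and 3.84 in TIF1γ libraries and 1.21, 1.77 and 1.17 in vector. All 3 sh libraries were below all 5 others, and NDUFA4L2 was lower there by 1.04 (SE 0.27). After correction for GC and length it was at -0.21 (limma adjusted p = 0.659). Only the TIF1γ and vector libraries, where it was higher, brought NDUFA4L2 past the filter, so its call, counted above, is not read as a result. NDUFA4 itself lay between 91.0 and 158 FPKM and was not called (0.10, SE 0.19).

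Complex V had 3 lower and 1 higher call among 19 tested nuclear members (21.1%, beside 41.6% of all genes). ATP5PB, the peripheral stalk subunit b, had 189 and 235 FPKM in sh-TAF15 libraries and 196 in sh-NC, against 83.7 and 91.7 in TIF1γ libraries and 138, 146 and 89.96 in vector. All 3 sh libraries were above all 5 others, and ATP5PB rose by 0.80 (SE 0.22, limma adjusted p = 0.01). After correction for GC and length it was at 0.445 (limma adjusted p = 0.0635). ATP5F1D had 136 and 269 FPKM in sh-TAF15 libraries and 124 in sh-NC, against 519 and 360.3 in TIF1γ libraries and 204, 284 and 226 in vector, and fell by 1.21 (SE 0.24, limma adjusted p = 0.00199), with sh-TAF15 replicate 3 inside the vector range. After the same correction it was at -0.42 (limma adjusted p = 0.0927). ATP5F1B, the catalytic beta subunit, lay between 867 and 1229 FPKM and was not called (-0.03, SE 0.19).

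ATP5MC1, ATP5MC2 and ATP5MC3 encode the same mature subunit c of the rotor ring with different import peptides. ATP5MC3 made up 35.7% and 40.8% of their summed FPKM in sh-TAF15 libraries and 35.5% in sh-NC, against 23.4% and 22.8% in TIF1γ libraries and 26.0%, 28.0% and 23.3% in vector. Each sh library was above all 5 others for this share. ATP5MC2 fell by 0.88 (SE 0.20, limma adjusted p = 0.00411) and ATP5MC1 fell by 0.86 (SE 0.26, limma adjusted p = 0.0168), while ATP5MC3 was not called (-0.03, SE 0.25). ATP5MC1 was not called without TIF1γ replicate 2 (limma adjusted p = 0.0525) or without sh-TAF15 replicate 2 (0.0551). ATP5MGL, a copy of the subunit g gene, was listed at 0 in all 8 libraries.

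GC content of the transcripts ran alongside these nuclear differences. Across the 82 nuclear members Spearman's rho between log2 fold change in the sh lines and GC of the longest transcript was -0.56, and across 11720 protein-coding genes it was -0.58, over the same 8 libraries. The 19 members over 55% GC had a median of -0.83, with 0 above 0, and the 29 under 45% GC a median of -0.03, with 14 above 0. With the GC and length trend removed from each library 25 members were called, 4 higher and 21 lower, and 17 of them were among the 28 called as fitted. NDUFA3, NDUFA7, NDUFB7, NDUFS7, NDUFB3, SDHD and UQCRHL were among those called both ways. The part of base composition in the differences was not tested further.

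**Figure D4:**
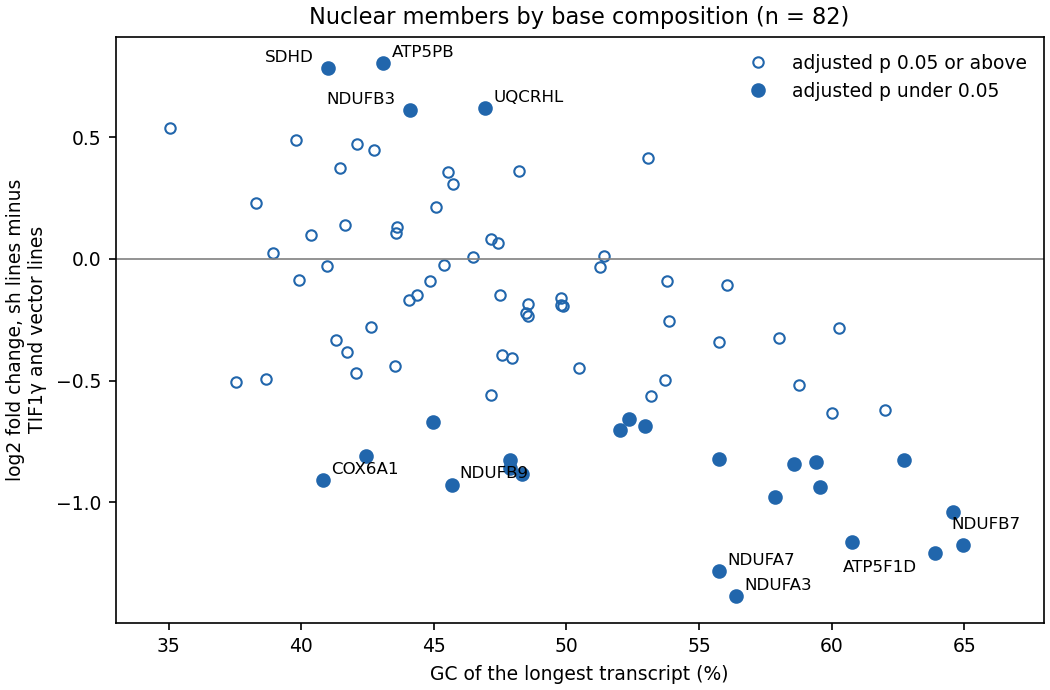
Log2 fold change of the 82 tested nuclear members in the sh lines (vertical axis) against the GC percent of their longest annotated transcript (horizontal axis), filled where the adjusted p was under 0.05. The 19 members over 55% GC all lie below 0, and the 4 higher calls lie at lower GC.

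Among the MT-encoded members 2 were called in the sh lines (15.4%, beside 41.6% of all genes), in opposite directions, and both are short in the annotation. MT-ATP8, which encodes a small membrane subunit of the ATP synthase, had 23058 and 17453 FPKM in sh-TAF15 libraries and 24281 in sh-NC, against 15748 and 8468 in TIF1γ libraries and 7887, 7236 and 12071 in vector. All 3 sh libraries were above all 5 others, and MT-ATP8 rose by 0.96 (SE 0.26, limma adjusted p = 0.0108). MT-ND3 had the values given above, with the sh libraries below all others except vector replicate 1, and fell by 0.70 (SE 0.22, limma adjusted p = 0.0225). After correction for GC and length MT-ATP8 was at -0.01 (limma adjusted p = 0.979) and MT-ND3 at -1.32 (limma adjusted p = 0.00474). MT-ATP8 spans 207 bases, MT-ND4L 297 and MT-ND3 346, they are the only 3 tested protein-coding genes under 350 bases, and the labels give an insert size near 300 base pairs. MT-ND3 was not called without vector replicate 3 (limma adjusted p = 0.0636) or without TIF1γ replicate 2 (limma adjusted p = 0.0728).

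MT-ATP8 and MT-ATP6 share 1 bicistronic mRNA, and their reading frames overlap by 46 bases, so their ratio compares counts from the same molecule. MT-ATP6 had 7211 and 5543 FPKM in sh-TAF15 libraries and 6505 in sh-NC, against 7383 and 4069.7 in TIF1γ libraries and 3800.1, 4311 and 4618 in vector, and was not called (0.25, SE 0.23). The MT-ATP8 to MT-ATP6 ratio was 3.20 and 3.15 in sh-TAF15 and 3.73 in sh-NC, against 2.13 and 2.08 in TIF1γ and 2.08, 1.68 and 2.61 in vector. The sh libraries were above all others also for this ratio, although both frames lie on 1 mRNA. MT-ND4L and MT-ND4 likewise share an mRNA and overlap by 7 bases, and their ratio was 1.05 and 0.581 in sh-TAF15 and 1.11 in sh-NC, against 1.21 and 1.26 in TIF1γ and 1.35, 0.738 and 2.20 in vector, so vector spanned the values of all other groups but 1 sh-TAF15 library.

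The ratio of MT-ND3 to its neighbour MT-CO3 was 0.491 and 0.519 in sh-TAF15 and 0.437 in sh-NC, against 0.879 and 0.821 in TIF1γ and 0.661, 0.814 and 0.761 in vector. The sh libraries were below all others. The part of fragment size and of the length correction in these ratios was not tested.

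**Figure D5:**
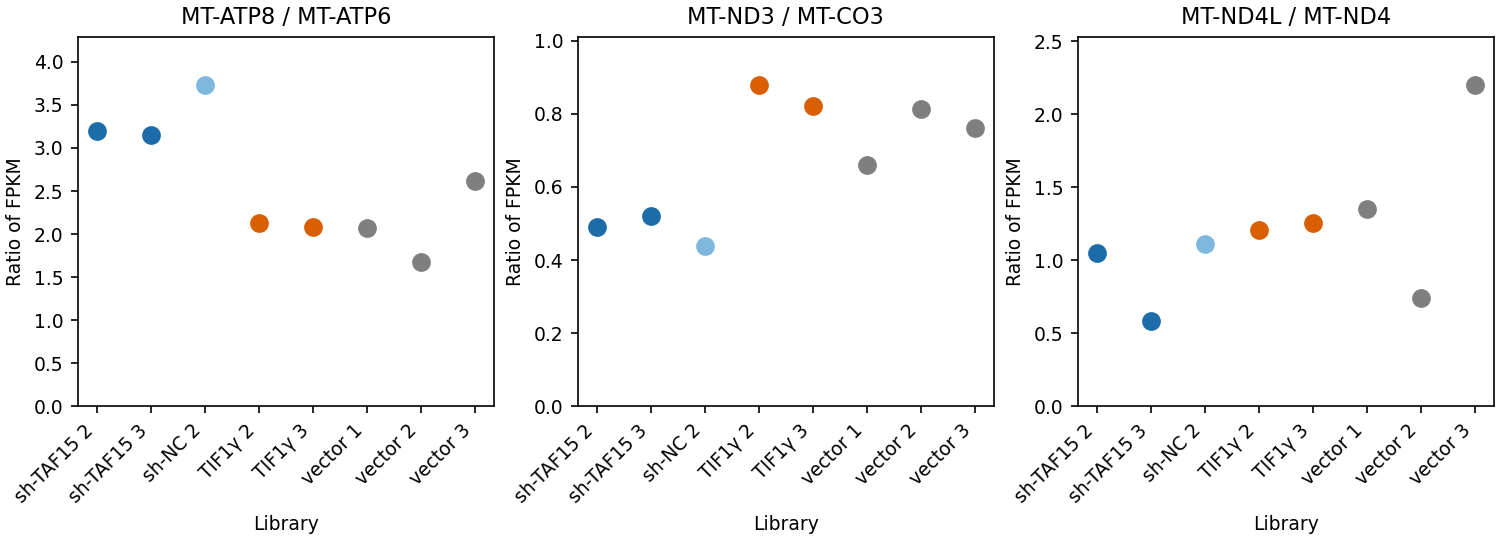
Ratio of FPKM within each library for MT-ATP8 to MT-ATP6, MT-ND3 to MT-CO3 and MT-ND4L to MT-ND4, with 1 point for each of the 8 libraries coloured by group. The 3 sh libraries lie above the others for the first ratio and below them for the second, while the third spreads from 0.581 to 2.20 without separating the sh libraries from the other 5.

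Genes that make, translate or assemble the chain were read from further lists. In the sh lines 21 of 45 genes of mitochondrial gene expression were called (46.7%, beside 41.6% of all genes), 18 higher and 3 lower, with a median of 0.48. After correction for GC and length 11 were called, 9 of them the same genes, and the median was 0.20. TFAM, which packages mitochondrial DNA and activates its transcription, had 40.1 and 38.0 FPKM in sh-TAF15 libraries and 56.2 in sh-NC, against 6.25 and 8.56 in TIF1γ libraries and 18.4, 18.5 and 11.6 in vector. Levels in the sh libraries did not overlap the other 5, and TFAM rose by 1.86 (SE 0.22, limma adjusted p = 4.20e-05). TRMT10C, a subunit of mitochondrial RNase P, rose by 1.26 (SE 0.24, limma adjusted p = 0.0014), and MGME1, a nuclease of mitochondrial DNA maintenance, rose by 1.06 (SE 0.21, limma adjusted p = 0.00162). In sh-NC minus vector TFAM was the 1 gene of this list called, with 1.60 (SE 0.34, limma adjusted p = 0.00843).

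Under TIF1γ 0 of these 45 genes were called by limma, and 16 had an unadjusted p under 0.05, all lower, where 19.9% of all genes were below that value, 11.4% lower. The list median was -0.38, and -0.19 after correction for GC and length. TFAM had -1.09 (SE 0.27, limma adjusted p = 0.2), with both TIF1γ libraries below all 3 vector libraries. TRMT10C had -1.19 (SE 0.29) and LRPPRC, which stabilises MT-encoded mRNAs, had -1.13 (SE 0.28), each with a limma adjusted p of 0.2. In sh-TAF15 minus sh-NC the list held 0 calls by limma and 0 at an unadjusted p under 0.05.

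Of 53 assembly factors, 6 were called higher and 11 lower in the sh lines (32.1%, beside 41.6% of all genes), with a median of -0.20. Of these 17, 8 were still called after correction for GC and length. SURF1, needed to assemble cytochrome c oxidase, had 25.2 and 40.6 FPKM in sh-TAF15 libraries and 22.7 in sh-NC, against 102 and 73.9 in TIF1γ libraries and 47.6, 61.4 and 59.5 in vector. Levels in the sh libraries lay below the other 5, and SURF1 fell by 1.497 (SE 0.21, limma adjusted p = 1.61e-04). NDUFAF3, of complex I assembly, fell by 1.26 (SE 0.24, limma adjusted p = 0.00136), and TMEM126B of the same process rose by 0.80 (SE 0.19, limma adjusted p = 0.00462). SURF1 and NDUFAF3 were also the 2 calls in sh-NC minus vector, at -1.43 (limma adjusted p = 0.0114) and -1.47 (limma adjusted p = 0.0189). After correction for GC and length NDUFAF3 was not called in either comparison, at -0.53 in the sh lines (limma adjusted p = 0.0531) and -0.85 in sh-NC minus vector (limma adjusted p = 0.0809). Under TIF1γ the lowest adjusted p was that of NDUFAF1, with 5.49 and 4.73 FPKM in TIF1γ libraries, against 13.7, 13.8 and 12.7 in vector (-1.32, SE 0.25, limma adjusted p = 0.13).

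Of 11 regulators of mitochondrial biogenesis, 2 were called in the sh lines (18.2%, beside 41.6% of all genes), both higher. GABPB1, the partner of GABPA in its ETS complex, had 23.8 and 25.0 FPKM in sh-TAF15 libraries and 14.4 in sh-NC, against 5.04 and 5.41 in TIF1γ libraries and 8.12, 7.67 and 5.62 in vector, and rose by 1.33 (SE 0.21, limma adjusted p = 3.75e-04). PPARGC1B, a coactivator, had 1.49 and 1.40 FPKM in sh-TAF15 libraries and 1.92 in sh-NC. It had 0.349 and 0.59996 FPKM in TIF1γ libraries and 0.761, 0.822 and 0.581 in vector. Only the sh libraries, where it was higher, brought PPARGC1B past the filter, so its call, counted above, is not read as a result. Its difference was 0.66 (SE 0.22), and it was not called after correction for GC and length (limma adjusted p = 0.0603). GABPA itself had 1.43 and 1.34 FPKM in sh-TAF15 libraries, against 3.79 in sh-NC (-1.03, SE 0.37, limma adjusted p = 0.697).

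Reads of MT-encoded mRNAs can also be assigned to nuclear copies of mitochondrial DNA. The annotation names 389 pseudogenes of MT-encoded members, of which 11 reached 1 FPKM in a library, and 187 of 50 nuclear members, of which 14 did. Of the tested copies MTCO2P12, MTCO3P12, MTND1P23 and MTATP8P1 passed the filter only through the sh libraries, so no count of calls is read from this list. MTCO3P12 had 9.71 and 8.97 FPKM in sh-TAF15 libraries and 13.9 in sh-NC, against 0.442 and 0.201 in TIF1γ libraries and 1.46, 0 and 0.882 in vector. MTND1P23 had 16.4 and 38.5 FPKM in sh-TAF15 libraries and 17.3 in sh-NC, against 0 and 2.86 in TIF1γ libraries and 0.512, 0 and 0.494 in vector. The sh libraries were above all others for both copies, while their source mRNAs MT-CO3 and MT-ND1 were not called (0.06, SE 0.21, and -0.26, SE 0.24).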

How the data were processed

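RNA of A549 lines was sequenced after poly(A) isolation or rRNA removal, per the labels' protocols. The submitters' processing notes name cutadapt 1.9.1, HISAT2 2.0.1, HTSeq 0.6.1 and GRCh37. The deposited values were read as FPKM, a unit inferred from the values because no label or header names it, and strandedness is not given in the sources used here. FPKM hold no fragment counts, so only relative depth could be read.

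Symbols, gene types, transcript length and GC came from GENCODE 29. A set of 19 genes listed at 0 beside 100 FPKM or more elsewhere, 0 of them members, was set aside. Libraries were scaled by trimmed means (30% of ratios, 5% of abundances). The FPKM printed for single libraries, and orders of libraries read from them, are unscaled, so close orders can differ on the scale of the fit. Genes reaching 1 FPKM in 2 or more of the 8 libraries were tested on log2(scaled FPKM + 1) with limma 3.58.1 (trend, robust) in R 4.3.3, all 4 groups in 1 fit, and Benjamini-Hochberg adjustment over 13907 genes. A fold change on this scale understates that of low genes. A call is an adjusted p under 0.05. The fit was tested on simulated data. Alternatives were scaling, pseudocount, filter, GC and length, a replicate block, other limma settings and leaving out each library. The sh-NC library could not be left out of comparisons that use it.

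The members and lists were chosen with earlier results of these data known. Genes named are all MT-encoded members, complex II, paralog pairs, called nuclear members up to 8 per direction, and the 2 nuclear members with the largest change in each direction. Other called members, and ATP5F1B, were named after their values were seen. A called member counted in the totals is not reported by name here.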

Additional observations from a re-analysis of the deposited data

How the results depend on the processing

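Scaled to totals without MT genes, the nuclear median was 0.054 in the sh lines, -0.11 in sh-NC minus vector and -0.068 in TIF1γ minus vector. The single sh-NC library could be left out only for TIF1γ minus vector, which does not use it. In the sh lines that library weighs as much as the mean of both sh-TAF15 libraries, and dependence on it could not be checked. Leaving out 1 library at a time gave nuclear medians from -0.34 to -0.17 in the sh lines, -0.45 to -0.24 in sh-NC minus vector, -0.039 to 0.28 in TIF1γ minus vector, 0.038 to 0.48 in sh-TAF15 minus sh-NC and -0.38 to 0.091 in the difference of effects. The MT-encoded medians ranged from -0.11 to 0.21 in the sh lines, 0.22 to 0.42 in sh-NC minus vector, 0.041 to 0.51 in TIF1γ minus vector, -0.40 to 0.15 in sh-TAF15 minus sh-NC and 0.17 to 0.61 in the difference of effects. In the sh lines 21 to 36 members were called when 1 library was left out, with 21 without TIF1γ replicate 2 and 36 without sh-TAF15 replicate 3, and 20 without the filter. In sh-NC minus vector 0 were called without the filter or on unscaled FPKM, 5 with upper-quartile scaling, with totals without MT genes or with GC and length removed, and 0 to 5 with 1 library left out. MT-ATP8 in the sh lines was -0.014 with GC and length removed and -0.094 with the replicate block as well. The cause of these shifts was not tested. The labels do not say that replicate numbers pair libraries. Deviations of same-numbered libraries correlated at 0.17 and 0.12 between TIF1γ and vector. They correlated at -0.37 and -0.24 between vector and sh-TAF15, and at -0.24 between TIF1γ and sh-TAF15. With 2 libraries in a group the deviations mirror each other, so the value for TIF1γ and sh-TAF15 is a single number. With the replicate block 21 members were called in the sh lines and 1 in sh-NC minus vector, and with GC and length removed too, 14 and 0. Of the alternatives for single named genes, 632 left the call and direction as they were, 86 removed a call and 2 turned the direction. The 632 include genes not called in the main fit, which count as unchanged by staying uncalled. Among genes called in the sh lines, NDUFA3 and NDUFA7 kept the call in all 16 alternatives, none of which left out sh-NC. NDUFA2 lost it in 9 and kept it in 7, and COX5B and UQCRHL each lost it in 8 and kept it in 8. The MT-minus-nuclear level, under 4 alternatives chosen after seeing the data, moved by less than its within-group SD of 0.506 in all 8 libraries. Other scaling divides both sets of a library by the same factor, and a smaller pseudocount hardly changes abundant genes. Of the 4, only the GC and length correction could therefore have moved this level appreciably. Depth limits low members, and sh-NC has 1 library.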

Other observations

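Mitochondrial ribosome and citric acid cycle genes gave calls in both directions in the sh lines. Of 76 mitochondrial ribosome genes 10 were called higher and 9 lower by limma (25%, beside 41.6% of all genes), with a median of -0.19. After correction for GC and length 8 of these 19 were still called, and the median was 0.13. In the same comparison, of 18 citric acid cycle genes 5 were higher and 2 lower (38.9%), with a median of 0.14. MRPL33, of the large mitochondrial ribosomal subunit, had 366 and 523 FPKM in sh-TAF15 libraries, against 144 in sh-NC (log2 fold change 1.54, SE 0.33, limma adjusted p = 0.149). In sh-NC minus vector it had 144 FPKM in sh-NC, against 320.2, 405 and 305 in vector, and was called lower (-1.42, SE 0.31, limma adjusted p = 0.0107).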
